A study of Mus musculus with 8 samples.

Results

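The mammary gland 12 h after a single injection of 17β-estradiol (E2) was compared with the gland of vehicle-treated mice. The comparison rests on 3 of the 8 arrays of the study, chosen by their titles: the 1 array titled 12 h and the 2 vehicle arrays. All groups were gonadectomized (GDX) virgin mice, aged 12 to 13 weeks, and the tissue was the inguinal mammary gland. GDX removes the ovaries, so the vehicle groups had no ovarian estrogen and the E2 groups received it under the skin. The labels give the dose with conflicting units, so no dose is stated. The vehicle arrays were both titled 24 h, so E2, the injection and the time of day cannot be told apart at 12 h. The sample descriptions read 24 h for every array, and the times used here come from the titles. The glands of every mouse in a group were taken, but the sources used here do not say whether RNA from several mice was pooled on an array. With 1 array at 12 h there is no replicate check and no test, and the difference between the vehicle arrays serves as the yardstick.

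E2 acts mainly through the estrogen receptor alpha, encoded by Esr1, a nuclear receptor that binds DNA and switches target genes on or off. In the mammary gland the receptor is found in a subset of luminal epithelial cells, the cells that line the ducts, and in stromal cells. Luminal cells that sense the hormone signal to their neighbours through secreted factors, and the progesterone receptor gene Pgr is a well known target. The gland is a small tree of epithelium in a large fat pad, with blood vessels, fibroblasts, immune cells and a lymph node.

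Levels are log2 of the deposited intensity, and a difference of 1 on this scale is 2-fold. A gene was read from its brightest probe set, and 10916 of 18193 genes passed a filter on their mean over all 8 arrays. The vehicle arrays differed from each other by an SD of 0.13 over these genes, with 18 genes (0.165%) at least 1.5-fold apart and 0 genes at least 2-fold apart. The 12 h array differed by an SD of 0.131 from vehicle 1 and 0.139 from vehicle 2, close to the difference between the vehicle arrays themselves. It was at least 1.5-fold from vehicle 1 in 47 genes (0.431%) and from vehicle 2 in 50 genes (0.458%). Against the other E2 arrays, the SD was smallest against 18 h (0.129) and largest against 3 h (0.172) and 6 h (0.169), with 0.149 against 1 h and 0.151 against 24 h. The 12 h array was therefore about as near to the vehicle arrays and the 18 h array as the vehicle arrays were to each other, and farther from the 3 h and 6 h arrays. In spread over all genes the 12 h array was thus near the vehicle yardstick, and differences of at least 1.5-fold concern a small set of genes. That yardstick is loose, as the 18 h and 24 h arrays differed from each other by an SD of only 0.09. Over all genes, 4140 (37.9%) lay above both vehicle arrays and 2748 (25.2%) below both by any amount, so position alone says little about a single gene. The other 4028 (36.9%) lay between the vehicle arrays. These shares are the background for every count of list members above or below both vehicle arrays.

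The labelled tissue was checked against its markers. Of 24 luminal epithelial markers 21 passed the level filter, as did 8 of 12 myoepithelial and 11 of 14 white adipocyte markers, while 0 of 9 epidermal markers passed. Markers of tissues that can be dissected along with the gland varied between the arrays. The median of 19 skeletal muscle markers was 0.19 above the vehicle mean at 12 h, with the vehicle arrays 0.39 apart, against 1.23 at 6 h and 0.87 at 18 h. Their summed intensity was 18100 at 12 h, beside 17573 and 13402 on the vehicle arrays. The summed intensity of 12 B lymphocyte markers was 30833, between the vehicle values of 26223 and 31470, and that of 13 T lymphocyte markers was 10679, beside 9760 and 10665. None of the muscle, B or T lymphocyte markers lay 1.3-fold beyond both vehicle arrays at 12 h, and the largest departures from vehicle were those of muscle markers at other times.

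At 12 h, 16 genes (0.147% of those compared) lay at least 1.5-fold above both vehicle arrays and 7 (0.0641%) at least 1.5-fold below both. Distances are given to the nearer vehicle array, and in all 23 genes the distance was larger than the gap between the vehicle arrays. The 1.5-fold limit nearly fixes this outcome, since only 0.165% of all genes had vehicle arrays that far apart. Set against vehicle 2 alone there were 30 higher and 20 lower genes at 1.5-fold, and against vehicle 1 alone 24 and 23. At 2-fold from both there were 4 higher genes (0.0366%), Cxcl15, Krt8, Clca3a2 and Pgr, and 2 lower genes (0.0183%), C1qtnf3 and Cited1. The 16 higher genes code for luminal keratins, secreted and surface proteins of epithelium, a milk fat globule protein and receptors. The 7 lower genes include a C1q/TNF family adipokine, a transcriptional coactivator, a clotting factor chain and a matricellular protein.

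**Figure D1:**
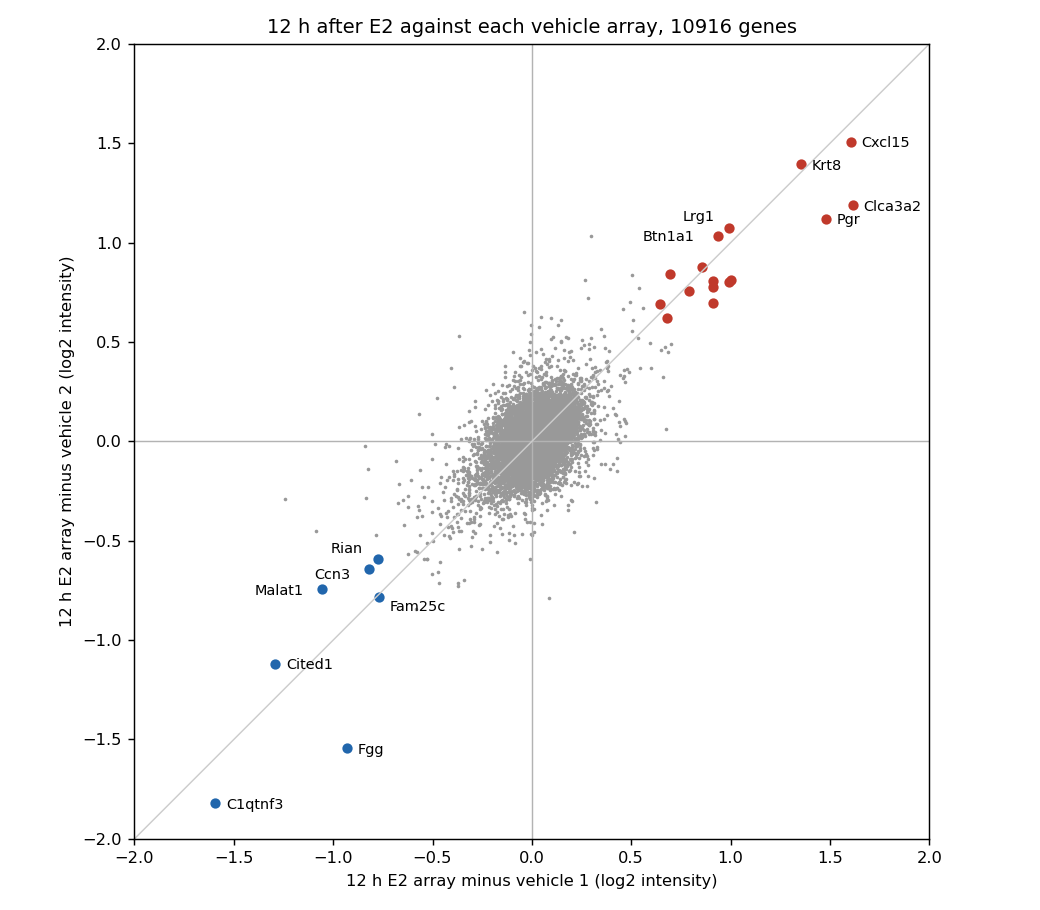
Each point is 1 of 10916 genes, with the log2 difference of the 12 h array from vehicle 1 on the horizontal axis and from vehicle 2 on the vertical axis; coloured points are the 16 genes at least 1.5-fold above and the 7 at least 1.5-fold below both vehicle arrays. Among the coloured genes Fgg, at -0.93 and -1.54, has the largest gap between the vehicle arrays and lies off the diagonal. The 1.5-fold limit alone parts coloured from grey genes, and some grey genes lie just short of it. Names are printed for the lower genes and the 6 farthest higher genes.

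In the sentences that follow, the levels after E2 stand in time order, from 1 h over 3, 6, 12 and 18 h to 24 h. The luminal keratins, filament proteins that mark the inner epithelial layer, stood out. Krt8 was 10.17 and 10.13 on the vehicle arrays and 10.06, 9.61, 10.13, 11.52, 11.02 and 10.71 after E2. Its 12 h level was 2.59-fold above the vehicle mean. Krt8 was thus below both vehicle arrays at 3 h, level with them at 6 h, highest at 12 h and still above them at 24 h. Krt18, the filament partner of Krt8, was 10.45 and 10.67 on the vehicle arrays and 10.46, 9.99, 10.41, 11.36, 11.00 and 10.79 after E2. It too was lowest at 3 h and highest at 12 h, then 1.75-fold above the vehicle mean. Both further probe sets of Krt8 gave differences of 1.44 and 1.28 from the vehicle mean at 12 h. Krt19 and Krt7, the other luminal keratins listed, were 0.49 and 0.39 above the vehicle mean and lay above both vehicle arrays. The median of these 4 keratins was 0.65 above the vehicle mean at 12 h, and it was -0.56 at 3 h. Krt7 did not share the low level at 3 h (0.14), and Krt19 was highest at 24 h (0.58). The Krt19 vehicle gap of 0.34 was larger than its 12 h distance of 0.32 from the nearer vehicle array.

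The promoters of both keratins, of Pgr and of C1qtnf3, the farthest lower gene, are shown because the estrogen receptor binds DNA at a palindrome of GGTCA. Each is the 250 bases before the transcription start in RefSeq, on assembly GRCm38.p6, written 5′ to 3′ on the strand of the gene, with each GGTCA in capitals. The Krt8 window is chr15:102004343-102004592 on the minus strand, and that of Krt18 is chr15:102027966-102028215 on the plus strand. The Pgr window is chr9:8899583-8899832 and that of C1qtnf3 is chr15:10952082-10952331, both on the plus strand.
Krt8: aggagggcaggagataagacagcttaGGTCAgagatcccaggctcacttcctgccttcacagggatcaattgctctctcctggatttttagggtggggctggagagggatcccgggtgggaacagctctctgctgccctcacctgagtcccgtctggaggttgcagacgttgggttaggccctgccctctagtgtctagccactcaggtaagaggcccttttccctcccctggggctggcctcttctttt
Krt18: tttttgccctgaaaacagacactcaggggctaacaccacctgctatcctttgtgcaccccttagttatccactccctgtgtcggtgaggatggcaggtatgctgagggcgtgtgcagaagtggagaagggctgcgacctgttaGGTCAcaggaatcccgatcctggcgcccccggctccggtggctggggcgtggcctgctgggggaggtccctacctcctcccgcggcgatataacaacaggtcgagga
Pgr: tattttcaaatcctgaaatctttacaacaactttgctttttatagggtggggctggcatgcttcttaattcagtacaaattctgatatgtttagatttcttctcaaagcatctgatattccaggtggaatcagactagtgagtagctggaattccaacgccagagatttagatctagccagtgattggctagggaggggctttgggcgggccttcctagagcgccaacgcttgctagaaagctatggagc
C1qtnf3: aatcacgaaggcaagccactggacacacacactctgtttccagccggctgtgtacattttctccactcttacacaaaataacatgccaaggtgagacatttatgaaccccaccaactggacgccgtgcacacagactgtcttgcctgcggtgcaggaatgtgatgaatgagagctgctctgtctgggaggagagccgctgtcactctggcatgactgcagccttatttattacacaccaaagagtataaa
GGTCA or its complement begins at position -224 in the Krt8 window and at -107 in the Krt18 window, counted from the start, and the Pgr and C1qtnf3 windows hold none. Both strands were searched. The full palindrome GGTCANNNTGACC was in 0 of the 24 promoters of the 20 genes that matched RefSeq out of the 23, and in 0.0639% of all 32851 promoters. The single arm GGTCA, which also lies within the palindrome, was in 12 of these 24 promoters and in 35.2% of all promoters. These matches describe letters in a short window only.

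The rest of the luminal list did not share the distance of its keratins. Of 21 luminal markers compared, 14 lay above and 4 below both vehicle arrays, and their median was 0.15 above the vehicle mean, beside 0.01 over all genes. Without the keratins, the median of 17 markers was 0.09, with 10 above and 4 below. Prom1, a membrane protein of cell protrusions, was 8.16 and 8.19 on the vehicle arrays and 8.15, 8.49, 8.76, 8.95, 8.82 and 8.33 after E2, and was the farthest of the 17. Elf5, the transcription factor of alveolar cells, was 0.49 above the vehicle mean, and the tight junction gene Cldn7 0.39. Epcam was level with the vehicle mean (0.00) and Cdh1 differed by -0.05, both general markers of epithelium. The summed intensity of the list, keratins included, was 15580 and 15775 on the vehicle arrays and 19390 at 12 h, the highest of the 8 arrays. Keratins made up much of that difference. The intensity of Krt8 was 1149 and 1120 on the vehicle arrays and 2941 at 12 h, and that of Krt18 was 1399, 1625 and 2635. In bulk tissue, fewer cells of a type and less RNA per cell cannot be told apart, and the same holds for more cells and more RNA.

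The epithelium's hormone sensors lay on both sides of the vehicle arrays. Pgr, a direct target in many tissues, was 8.16 and 8.51 on the vehicle arrays and 8.64, 10.77, 9.94, 9.63, 8.98 and 8.50 after E2. It was highest at 3 h and 2.46-fold above the vehicle mean at 12 h. Further probe sets of Pgr, both dim, gave only 0.13 and -0.04. Esr1 was 10.60 and 10.56 on the vehicle arrays and 10.17 at 12 h, a difference of -0.40 from the vehicle mean, beside -0.99 at 6 h and -0.28 at 18 h. Cited1, a coactivator of the estrogen receptor, was 9.22 and 9.05 on the vehicle arrays and 8.95, 8.20, 7.11, 7.93, 9.15 and 9.25 after E2, so that its 12 h level lay between those at 6 h and 18 h. Foxa1, which opens chromatin for the receptor, differed by -2.63 at 3 h and by -0.26 at 12 h, and Gata3, a luminal transcription factor, by 0.15 at 12 h. Of 20 estrogen response genes compared, 7 (35%) lay above and 10 (50%) below both vehicle arrays, with a median of -0.04. The shares over all genes were 37.9% and 25.2%. Stc2, a secreted glycoprotein of that list, was 10.67 and 10.84 on the vehicle arrays and 11.21 at 12 h, above all 7 other arrays.

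Several genes far from vehicle early were near it at 12 h. Krt4, a keratin of stratified epithelium, was 3.40 above the vehicle mean at 3 h and 2.53 at 6 h, but 0.07 at 12 h, between the vehicle arrays. Errfi1, a feedback inhibitor of EGF receptor signalling, was 1.48 above at 1 h and 0.20 at 12 h. Fos differed by 0.66 at 3 h and -0.17 at 12 h. The median of 26 immediate early genes was 0.25 at 1 h and 0.24 at 3 h, then 0.14 at 6 h and -0.02 at 12 h, with 10 above and 12 below both vehicle arrays. The early signalling genes were thus spread around the vehicle level at 12 h. The cell cycle list stood likewise, with a median of -0.04 over 25 genes, and Ccnd1 and Myc differed by 0.05 and 0.17.

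**Figure D2:**
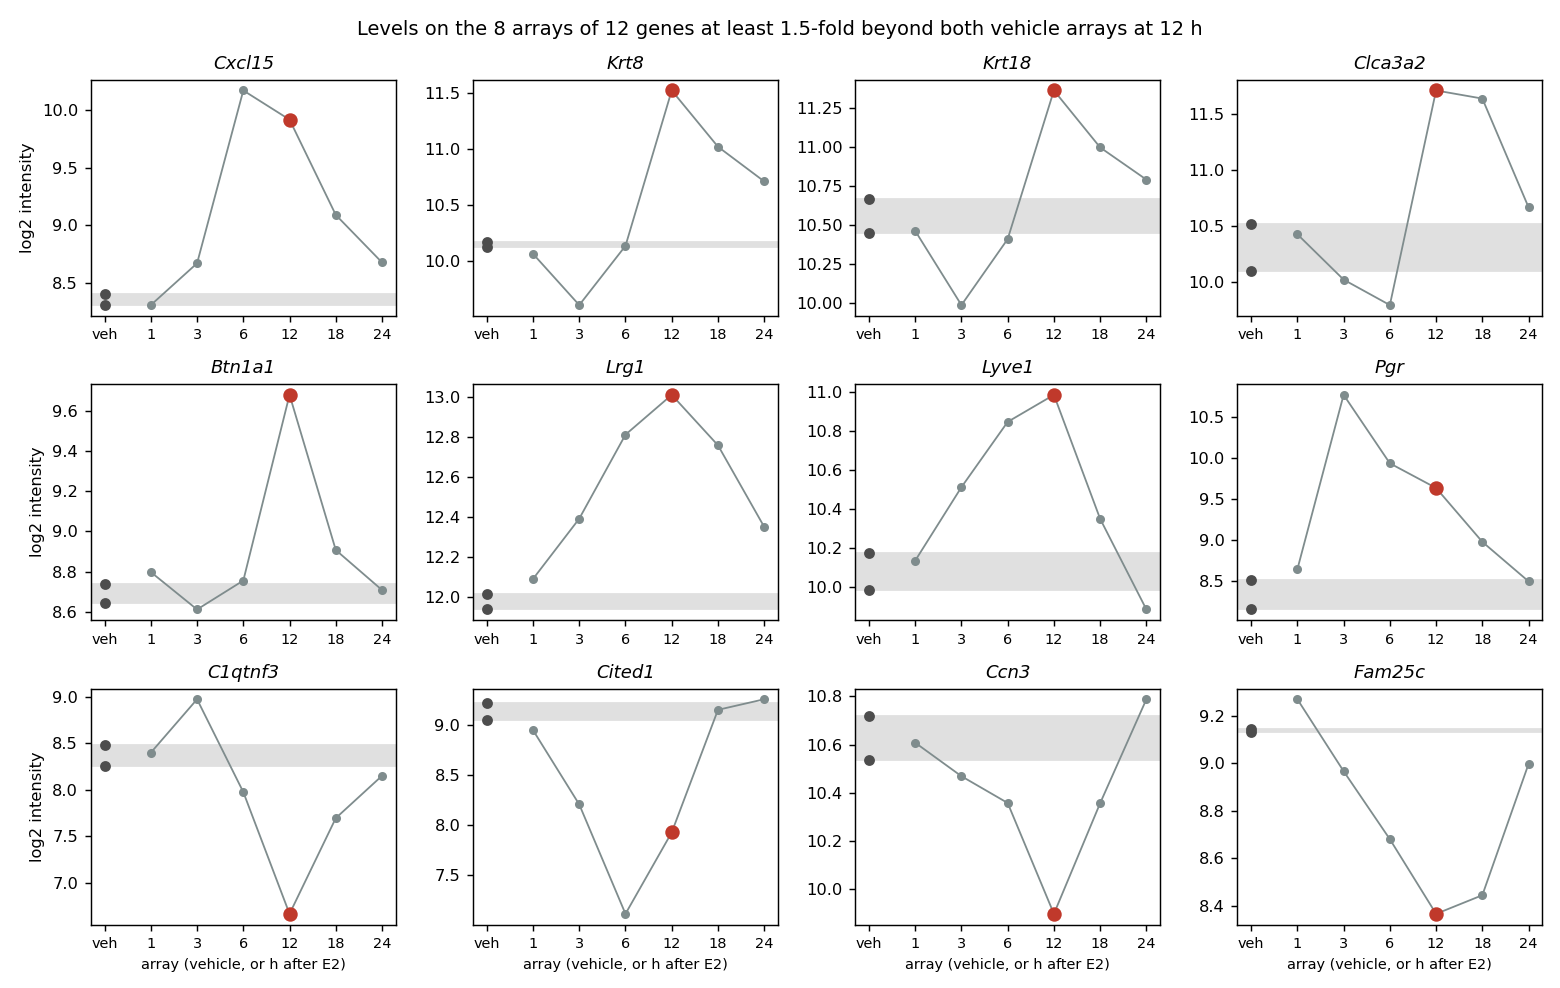
Log2 intensity on the 2 vehicle arrays and the 6 E2 arrays for genes named in the text, with evenly spaced times and 1 array at each time; the grey band spans the vehicle arrays and the large red point is 12 h. Krt8 and Btn1a1 are highest at 12 h, Pgr is highest at 3 h, and C1qtnf3 is lowest at 12 h.

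Several of the higher genes code for secreted proteins or their processing at the cell surface. Cxcl15, an epithelial chemokine, was 8.31 and 8.41 on the vehicle arrays and 8.31, 8.67, 10.17, 9.92, 9.09 and 8.68 after E2. It was the farthest higher gene at 12 h, 2.94-fold above the vehicle mean, though higher still at 6 h. Clca3a2, a chloride channel accessory protein, was 10.10 and 10.52 on the vehicle arrays and 10.43, 10.02, 9.80, 11.71, 11.64 and 10.67 after E2. Its relative Clca3a1 was 8.85 and 9.03 on the vehicle arrays and 9.12, 8.76, 8.67, 9.84, 9.76 and 9.10 after E2. Both were below the vehicle arrays at 6 h and above them at 12 h and 18 h, and as close paralogs they may share signal between their probe sets. Lrg1, a secreted glycoprotein of the acute phase, was 12.02 and 11.94 on the vehicle arrays and 12.09, 12.39, 12.81, 13.01, 12.76 and 12.35 after E2, with the 12 h level 2.05-fold above the vehicle mean. Among 15 genes of secreted defense, 8 lay above and 4 below both vehicle arrays, and 3 of them, Cxcl15, Clca3a2 and Clca3a1, were 1.5-fold above both. The list median was 0.33 with the vehicle arrays 0.12 apart, but 0.04 without the level filter, so it depends on leaving out dim genes. Lcn2, which binds bacterial siderophores, differed by 0.55 and the protease inhibitor Slpi by 0.45, while Wfdc2, of the same inhibitor family, differed by -0.59.

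Several genes of milk secretion were higher at 12 h in animals that had never lactated. Btn1a1, butyrophilin of the milk fat globule membrane, was 8.74 and 8.64 on the vehicle arrays and 8.80, 8.61, 8.76, 9.68, 8.91 and 8.71 after E2. The 12 h array stood 0.77 above the next highest array, and the gene was nearer to vehicle at every other time. Its further probe sets, both dim, gave 0.47 and 0.10. Of 12 milk genes compared, 9 lay above and 0 below both vehicle arrays, with 5 of them 1.3-fold or more above, beside 30 of all genes (0.275%). Their median was 0.30 at 12 h, 0.05 at 6 h and 0.21 at 18 h. The level filter left out 5 of the 17 listed genes, and without it the 12 h median was 0.22. Lalba, the regulatory subunit of lactose synthase, differed by 0.66, Wfdc18 by 0.62, the membrane mucin Muc15 by 0.60 and kappa casein Csn3 by 0.55. The vehicle mean of Lalba, 7.64, was under the level filter of 7.72, so it passed through the E2 arrays. The counts of this list are to that extent shaped by the filter. Xdh and Plin2, of the fat globule, differed by 0.01 and 0.09. The milk protein genes Wap and Csn2, both under the level filter, differed by -0.02 and 0.43. A further, still dimmer probe set of Csn2, with a vehicle mean of 4.92, gave 1.55, so the readings of Csn2 disagreed in size. All 8 myoepithelial markers compared, of the contractile layer around the luminal cells, lay above both vehicle arrays, beside 37.9% of all genes. Their median was 0.19 at 12 h and between 0.13 and 0.19 at all E2 times. With a filter at the 60th percentile, the 12 h median of that list was 0.10. The oxytocin receptor gene Oxtr differed by 0.38 at 12 h, but its vehicle gap of 0.26 was larger than its distance of 0.25 from the nearer vehicle array. The same held for Actg2 and Sfn of that list, but not for Cnn1. Sfn had a vehicle mean of 7.69, under the level filter of 7.72.

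The remaining higher genes belong to several cell types. Lyve1, the hyaluronan receptor of lymphatic endothelium and some macrophages, was 9.99 and 10.17 on the vehicle arrays and 10.14, 10.51, 10.85, 10.99, 10.35 and 9.89 after E2. The median of 12 endothelial markers was 0.02. Gpx3, a secreted glutathione peroxidase, was 13.03 and 12.88 on the vehicle arrays and 13.02, 13.47, 13.64, 13.73, 13.52 and 13.28 after E2. Lyve1 and Gpx3 were both highest at 12 h by a small margin over 6 h. Slc5a5, the iodide transporter, was 7.67 and 7.77 on the vehicle arrays and 8.11, 8.49, 8.73, 8.58, 8.10 and 8.01 after E2. The histamine-degrading Aoc1, the neurotrophin receptor Ngfr, the membrane receptor Mmd2 and Gas6, a ligand of TAM receptors, had distances of 0.86, 0.78, 0.64 and 0.62. All 5 of these were higher at 6 h than at 12 h. Mmd2 was 7.58 and 7.53 on the vehicle arrays, both under the level filter of 7.72, so it passed through the E2 arrays, and Slc5a5 was under that level on vehicle 1. Gas6 was the nearest gene inside the 1.5-fold limit, and Wfdc18 (0.56) and Lalba (0.54) were the nearest outside. In all, 9 of the 16 higher genes had their highest level of the 8 arrays at 12 h, beside 15.9% of all genes. All 16 were nearer to the vehicle mean at 24 h than at 12 h. The genes were chosen by their 12 h level, which favours both counts, so no return to vehicle can be read from them.

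C1qtnf3, an adipokine of the C1q/TNF family made in fat and connective tissue, was the farthest lower gene. It was 8.26 and 8.49 on the vehicle arrays and 8.40, 8.97, 7.97, 6.66, 7.69 and 8.15 after E2. It was above both vehicle arrays at 3 h, 3.26-fold below the vehicle mean at 12 h, and at 12 h its distance from the lowest of the 7 other arrays was -1.03. The 12 h levels of C1qtnf3 and Fgg were under the level filter of 7.72, which both genes passed by their mean over all arrays. Fgg, the gamma chain of fibrinogen, was 8.45 and 9.06 on the vehicle arrays and 8.93, 8.19, 7.46, 7.52, 7.78 and 7.95 after E2. Its vehicle gap of 0.62 was the largest of the 23 genes. Ccn3, a matricellular protein, was 10.72 and 10.54 on the vehicle arrays and 10.61, 10.47, 10.36, 9.90, 10.36 and 10.79 after E2, and its further probe set gave -0.78 at 12 h. The long noncoding RNAs Malat1 and Rian had distances of -0.75 and -0.59, and Fam25c had -0.77. Further probe sets of Malat1 ranged from -0.995 to 0.02, so the readings of that transcript disagreed. Tmprss2, a surface protease (-0.58), and Pamr1 (-0.57) were the nearest genes outside the limit. Max, the partner of Myc, the matrix protein Aspn and the fatty acid transporter Slc27a1 followed at -0.56, -0.55 and -0.54. A further probe set had a distance of -0.46 for Aspn but only -0.23 for Slc27a1. Of the 7 lower genes, 5 had their lowest level of the 8 arrays at 12 h, beside 7.87% of all genes, and all 7 were nearer to the vehicle mean at 24 h. Here too the choice by the 12 h level favours both counts.

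Of the 23 genes, 14 had further probe sets, 26 in all. In 21 of these the 12 h array lay beyond both vehicle arrays in the same direction, and in 1, of Gas6, in the opposite direction. Among the 13 that passed the level filter, 10 did so in the same direction. These counts take any distance, and by any distance 37.9% of all genes lay above and 25.2% below both vehicle arrays. Further probe sets were read on the same 12 h array, so they are not replicates. Lyve1 gave 0.96 and Clca3a1 0.78 on such second readings. With the mean of all probe sets of a gene in place of the brightest, 7 of the 23 genes were no longer 1.5-fold beyond both vehicle arrays, namely Btn1a1, Gas6, Malat1, Mmd2, Ngfr, Pgr and Rian.

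Macrophage, fibroblast and matrix genes lay mostly below vehicle. Of 16 macrophage and myeloid markers, 13 lay below and 0 above both vehicle arrays, with a median of -0.15, while the vehicle arrays were 0.03 apart. The differences were -0.33 for the lysosomal Cd68, -0.29 for the protease Ctss and -0.27 for Adgre1, a macrophage surface receptor. Their median was 0.17 at 6 h and -0.07 at 18 h. The summed intensity of the list was 59212 and 58576 on the vehicle arrays, 65137 at 6 h and 53262 at 12 h, the lowest of the 8 arrays. None of these markers was 1.3-fold below both vehicle arrays, beside 35 of all genes (0.321%), so each difference was small. Of 12 fibroblast markers 9 lay below and 2 above, with a median of -0.13, and their summed intensity was 87780 and 88473 on the vehicle arrays and 82038 at 12 h. Pdgfra and Thy1 were the exceptions, at 0.11 and 0.20. Collagen genes stand in both the fibroblast and the matrix list.

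Of 29 collagen and matrix genes, 17 lay below and 7 above both vehicle arrays, with a median of -0.09. Tnc, tenascin C of remodelling stroma, was 9.98 and 10.04 on the vehicle arrays and 10.03, 10.36, 10.29, 9.45, 9.80 and 9.97 after E2, lowest at 12 h. The fibril-associated collagen Col14a1 differed by -0.43 and the proteoglycan Bgn by -0.39. The basement membrane collagens Col4a1 and Col4a2 were on the other side, at 0.20 and 0.17. Gpnmb and Mmp12, genes outside these lists, also had their lowest levels at 12 h. Gpnmb, a transmembrane glycoprotein, was 10.95 and 10.64 on the vehicle arrays and 10.17 at 12 h, and Mmp12, macrophage elastase, was 9.36 and 8.73 and then 8.28. The Mmp12 vehicle gap was larger than its 12 h distance from the nearer vehicle array.

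**Figure D3:**
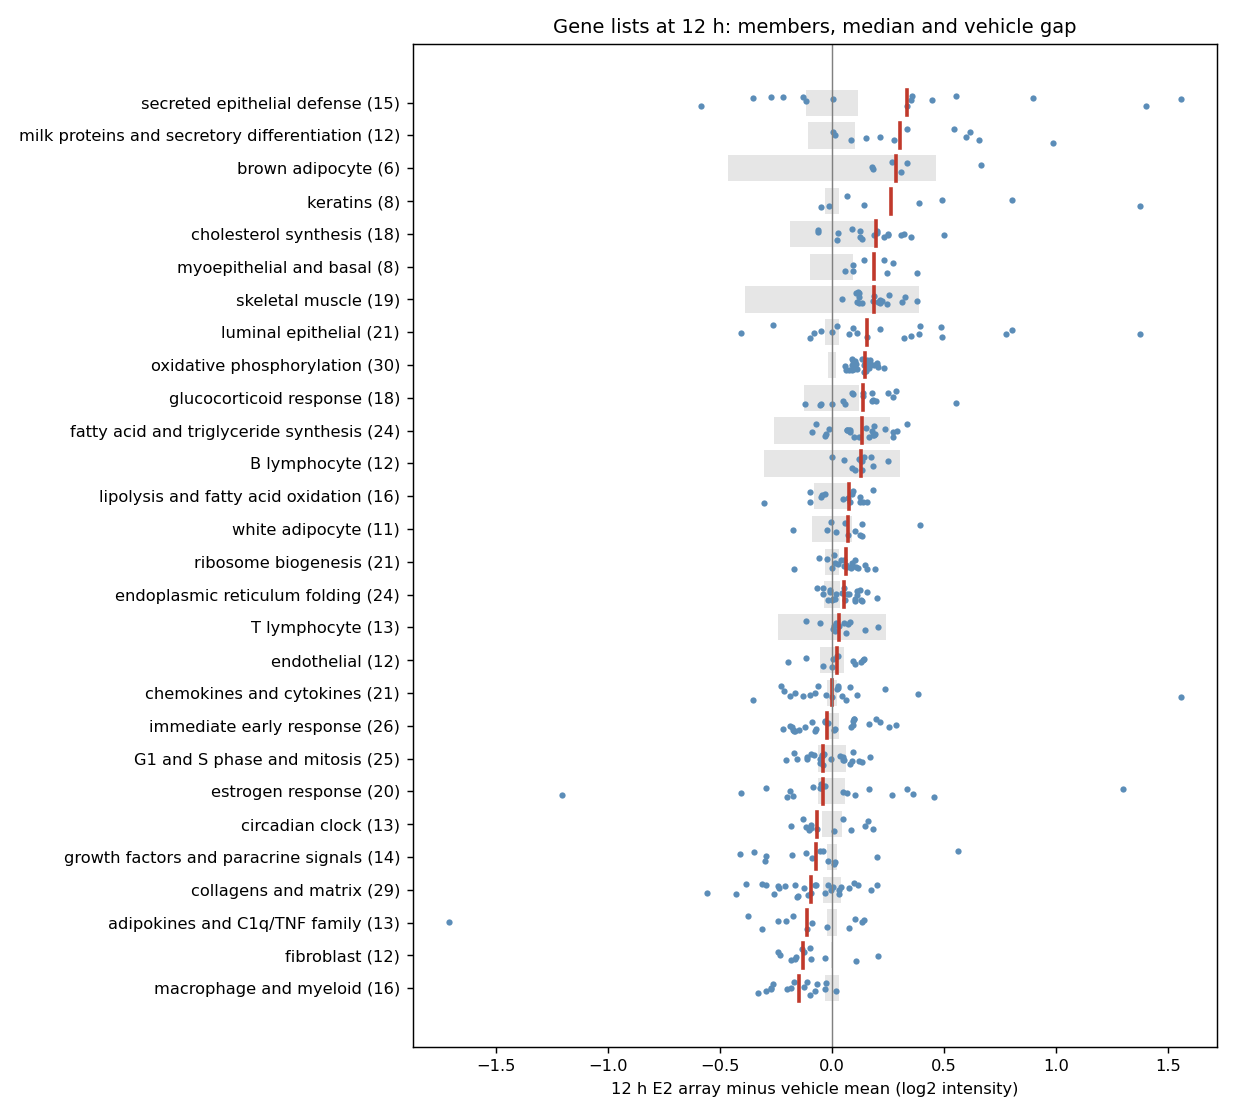
Median log2 difference of the 12 h array from the vehicle mean for each gene list, with each gene as a point, the list median as a red bar and a grey band that reaches the median vehicle difference on either side of 0; the number of genes compared is in brackets. Oxidative phosphorylation (0.15) and milk genes (0.30) lie above their vehicle difference, macrophage markers (-0.15) below, and the median of skeletal muscle markers (0.19) is smaller than theirs.

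Every oxidative phosphorylation gene compared lay above both vehicle arrays. The list holds subunits of the mitochondrial respiratory chain and ATP synthase, and 30 of its 32 genes were compared. Their median was 0.15 at 12 h, with the vehicle arrays -0.02 apart. The distances were small, from 0.02 to 0.22, and none reached 1.3-fold. In 25 of 30 the distance exceeded that gene's own vehicle gap. The median was 0.11 for 9 genes of complex I, 0.14 for 4 of complex II, 0.17 for 4 of complex III, 0.16 for 4 of complex IV and 0.11 for 8 of ATP synthase, a range from 0.11 to 0.17. In 25 of 30 genes the 12 h array was the highest of the 6 E2 arrays, and the list median was 0.05 at 6 h, 0.07 at 18 h and 0.02 at 24 h. The shares of all genes were not taken for this count or for the count against vehicle gaps, so neither has a background. Muscle and brown fat are rich in mitochondria, and their marker medians at 12 h were 0.19 and 0.29, both smaller than their vehicle differences of 0.39 and 0.46. Their contribution to the 12 h value was not tested. With the mean of all probe sets of a gene, the oxidative phosphorylation median was 0.09.

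Lipid synthesis genes separated 12 h from the earlier times. Of 18 cholesterol synthesis genes 16 lay above and 1 below both vehicle arrays, with a median of 0.19 at 12 h, and the vehicle arrays were as far apart (0.19). The list median was -0.21 at 3 h and -0.11 at 6 h but 0.19 at 18 h and 0.20 at 24 h, so the 12 h array stood with the later arrays. Against vehicle 1 alone the cholesterol median at 12 h was 0.08, and that of fatty acid and triglyceride synthesis 0.02. Fdps, farnesyl diphosphate synthase, was 9.51 and 9.07 on the vehicle arrays and 9.23, 9.02, 9.20, 9.79, 9.82 and 9.88 after E2. Of 24 fatty acid and triglyceride synthesis genes 14 lay above and 1 below, with a median of 0.14 that was smaller than the vehicle difference of 0.26. That median was -0.19 at 6 h and 0.22 at 18 h. White adipocyte markers had a median of 0.07 and Plin4, a lipid droplet coat protein, differed by 0.39.

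The adipokine list, which holds C1qtnf3, had a median of -0.11 over 13 genes, with 8 below and 4 above both vehicle arrays. C1qtnf1 and C1qtnf2 differed by -0.37 and -0.31, and leptin, Lep, by -0.17. Of 28 growth factor and paracrine genes listed only 14 were compared, and of these 10 lay below and 2 above. Their median was -0.07, and without the level filter it was -0.04. Insulin-like growth factor 1, Igf1, differed by -0.29, and the binding protein genes Igfbp3, Igfbp5 and Igfbp4 by -0.41, -0.35 and -0.05. A further probe set gave -0.54 for Igfbp3 but only -0.11 for Igfbp5. Igf2 differed by 0.01. Igfbp6, another binding protein gene, had the largest difference of these (0.56), at 11.28 and 11.08 on the vehicle arrays, 11.75 at 6 h and 11.74 at 12 h.

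Against the 6 h array, the luminal markers were higher at 12 h by a median of 0.30, milk genes by 0.27 and cholesterol synthesis genes by 0.39. Macrophage markers differed by a median of -0.33 from 6 h, with 0 of 16 above, and matrix genes by -0.28. Skeletal muscle markers differed by -1.01 between the same arrays, and the contribution of dissection to the other lists was not tested. Against the 18 h array, the same medians were -0.02 for luminal markers, 0.17 for milk genes, -0.00 for cholesterol synthesis, -0.10 for macrophage markers and -0.10 for matrix genes. The 12 h array thus resembled 18 h more than 6 h in luminal and cholesterol genes. Ribosome biogenesis genes kept the earlier side, with a median of 0.12 at 6 h, 0.06 at 12 h and -0.12 at 18 h.

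**Figure D4:**
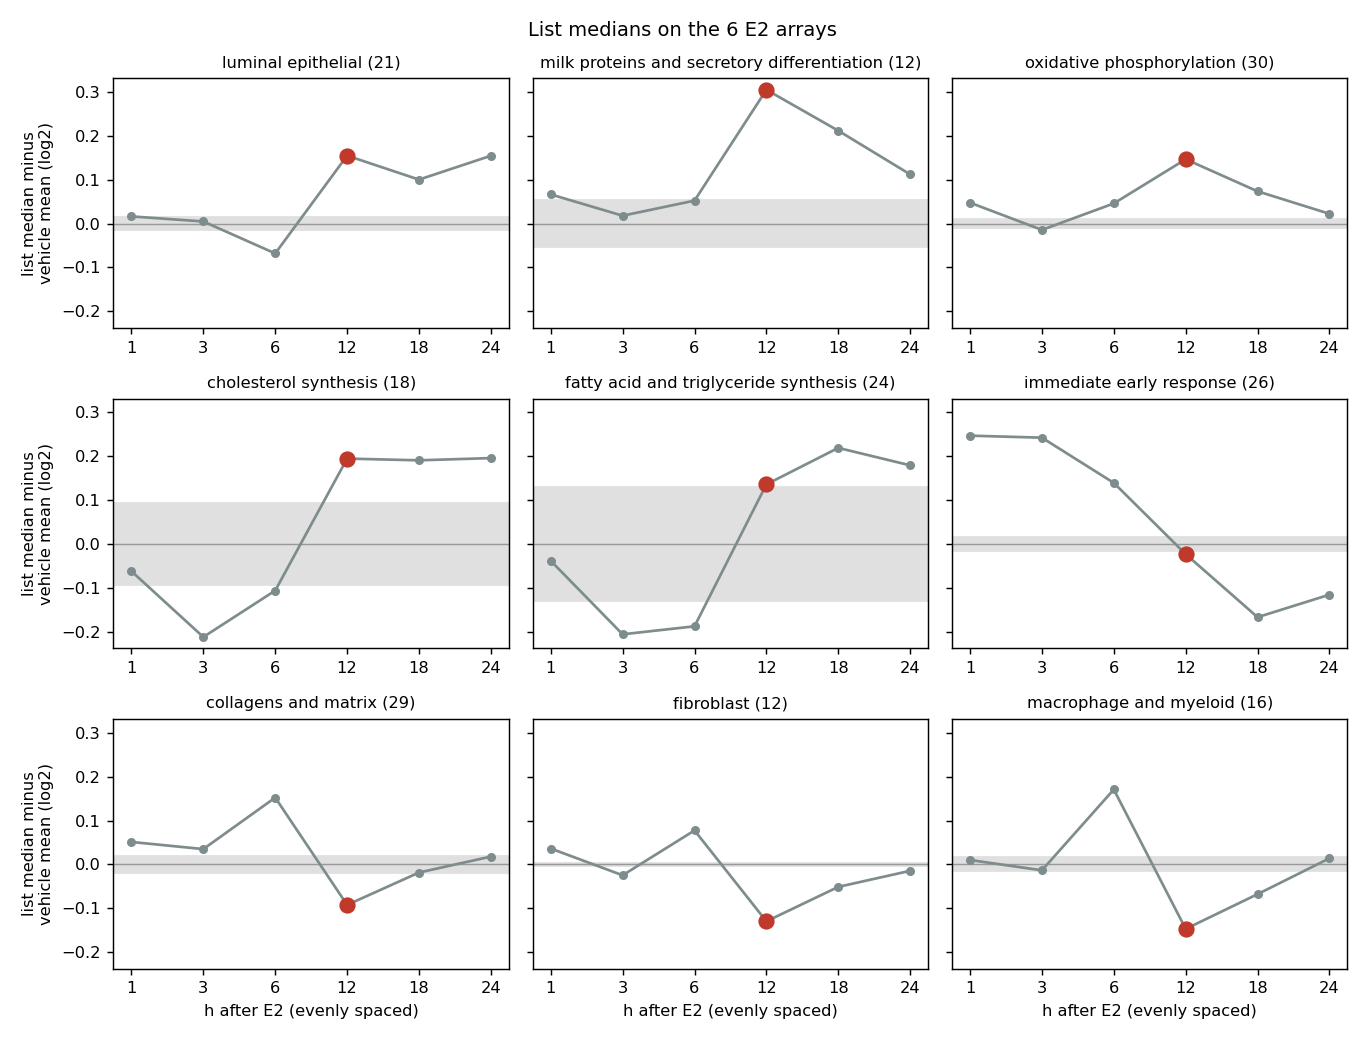
Median log2 difference from the vehicle mean of selected gene lists at each of the 6 E2 times, 1 array per time with evenly spaced labels; the grey band is as wide as the median vehicle difference, centred on the vehicle mean. Cholesterol synthesis passes from -0.11 at 6 h to 0.19 at 12 h, and macrophage markers from 0.17 to -0.15.

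Few genes had a 12 h level far beyond all other arrays. At 1.3-fold beyond all 7 other arrays, 2 genes were higher (0.0183%), Btn1a1 and Krt8, and 4 were lower (0.0366%), C1qtnf3, Gpnmb, Ccn3 and Mmp12. At 1.5-fold there was 1 gene in each direction (0.00916%), Btn1a1 and C1qtnf3. By any amount, 1732 genes (15.9%) were highest and 859 (7.87%) lowest at 12 h. The circadian clock list, which bears on the time of day, had a median of -0.07 over 13 genes, with 2 above and 7 below both vehicle arrays and none 1.3-fold beyond them. That median was 0.03 with a filter at the 60th percentile. Per1 and Dbp, clock genes with strong daily rhythms, differed by 0.18 and 0.15. On the other side, Per3, Cry2 and Clock differed by -0.18, -0.12 and -0.10. The Per1 vehicle gap of 0.20 was larger than its distance of 0.09 from the nearer vehicle array.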

How the data were processed

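Per the labels' protocols, biotin-labelled cRNA prepared from Trizol-extracted total RNA was read on 1-colour Affymetrix arrays. The deposited values are intensity values on a linear scale for 45101 probe sets, and GCOS 1.0 and RMA are the tools that the submitters' processing notes list, with no roles. Array medians lay between 173.9 and 180.49, and log2 of the deposited intensity was taken with no further normalization. The number of arrays limits the precision.

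Control probe sets (64) were left out, and 34958 probe sets carried 1 gene symbol in the platform annotation. A gene was its probe set with the highest mean, kept at or above the 40th percentile (7.72, an intensity of 211). Folds are differences of log2 values. No test was made, because 12 h is 1 array. The counting was tested on simulated data. Genes named are those 1.5-fold beyond both vehicle arrays (at most 25 per direction, filled to the 12 farthest), a panel of estrogen and mammary genes, up to 4 per list and the 5 per direction farthest beyond all 7 other arrays. Other genes of the lists named in the text, such as Epcam, Cdh1, Xdh and Plin2, were chosen after their values were seen. The members and lists were chosen with earlier results of these data known. Alternatives varied the filter, normalization, probe set summary, offset, threshold and vehicle array. Work was done in Python 3.11.15 with numpy 2.4.6, pandas 2.3.3 and matplotlib 3.10.9.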

Additional observations from a re-analysis of the deposited data

Results flagged for a closer look

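Krt8, Krt18 and C1qtnf3 lay on opposite sides of both vehicle arrays at 3 h and at 12 h. The distance of Krt8 from the nearer vehicle array was -0.523 at 3 h and 1.36 at 12 h, that of Krt18 was -0.464 and 0.70, and that of C1qtnf3 was 0.487 and -1.59. With 1 array at each time, the difference between the times was not tested.

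Probe sets without a single gene symbol were outside the comparison of genes, and 3 of 2585 above the level filter lay at least 1.5-fold above both vehicle arrays at 12 h. The distances were 0.601 and 0.644 for the probe sets that carry no symbol, and 1.11 for the one that carries 2 symbols. The level of the latter was 10.81 and 11.06 on the vehicle arrays, 10.59 at 6 h, 12.17 at 12 h and 12.09 at 18 h.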

How the results depend on the processing

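The main counts were 16 higher and 7 lower genes at 1.5-fold. Leaving out a vehicle array in turn gave 24 to 30 higher and 20 to 23 lower genes, 10 to 10 genes at 2-fold in place of 6, and 54.6 to 58.1% of genes above and 41.8 to 45.3% below, since a single array then had to be passed; all 23 genes were among the 50 called without vehicle 1 and the 47 without vehicle 2. A filter at the 60th percentile, which compares fewer genes, left 4 lower genes and 1 gene at 1.5-fold beyond all other arrays, and kept 16 of the 23. The mean of all probe sets of a gene also left 1 gene beyond all others and kept 16 of the 23, without Btn1a1, Gas6, Malat1, Mmd2, Ngfr, Pgr and Rian; the cause was not tested. A 1.3-fold threshold gave 30 higher and 35 lower genes, and the distance to the vehicle mean gave 14 lower genes. Over the 28 lists and 8 alternatives, 52 of 224 medians, in 22 lists, moved by over 1.5 times or took the other sign. The other lists, which did neither, were luminal epithelial, macrophage, fibroblast, milk, matrix and adipokine genes. The sign turned in 6 medians. With the 60th percentile filter the clock median was 0.0305 in place of -0.07, the cell cycle median 0.05 in place of -0.04 and the chemokine median 0.02 in place of -0.00. Without vehicle 1 the B lymphocyte median was -0.01, the T lymphocyte median -0.07 and the chemokine median 0.01. Without the filter the median was 0.04 for secreted defense in place of 0.33 and 0.14 for keratins in place of 0.27, and with the 60th percentile filter it was 0.10 for myoepithelial genes in place of 0.19 and 0.49 for keratins. Of 1110 values of 143 named genes, 8 had the other sign, in Ccnd1, Atf4, Cd3e, Cd3d, Krt4, Acot1 and Cidea, and 0 of the 174 values of the 23 genes did. No paired analysis was possible because the 12 h group is 1 array whose title carries no replicate number.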

Other observations

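The glucocorticoid response list had 12 of 18 genes above and 1 below both vehicle arrays at 12 h, with a median of 0.14 and the vehicle arrays -0.12 apart. The earlier medians were 0.15 (1 h), 0.16 (3 h) and 0.06 (6 h), and the 18 h median was 0.04. The metallothionein genes Mt1 and Mt2, which bind zinc and copper, differed by 0.27 and 0.25 at 12 h, and Fkbp5, a chaperone of steroid receptors, by 0.28. Lcn2, at 0.55, also stands in the defense list. Genes of endoplasmic reticulum folding had a median of 0.06, with 13 of 24 above and 3 below.

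Among 21 chemokine and cytokine genes 9 (42.9%) lay above and 8 (38.1%) below both vehicle arrays, beside 37.9% and 25.2% of all genes. Lipolysis and fatty acid oxidation genes had a median of 0.08 over 16 genes, with 8 above and 4 below. Brown adipocyte markers had a median of 0.29 over 6 genes, within the 0.46 between the vehicle arrays.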
